A study of Homo sapiens with 4 samples.

Results

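The genes described here are 34 genes of the ATF4 response and of amino acid supply. They comprise 6 transcription factors, 7 stress response effectors, 6 enzymes of serine and one-carbon metabolism, 7 other enzymes of amino acid and carbon metabolism and 8 amino acid transporters or their subunits. They were chosen by name, and all 34 were found among the 60606 genes of the count table. RNA was sequenced from DaroR cells, a darolutamide-resistant derivative of the LNCaP prostate cancer cell line maintained in 10 µM darolutamide, an antiandrogen. The cells received either 20 nM control siRNA (siControl) or 20 nM of an siRNA pool against the long non-coding RNA LOC730101 (siLOC730101), with 2 libraries in each group. Both groups therefore carried the resistant background, which was 1 derived line. No source used here says that the 2 libraries of a group came from separate cultures, so the p-values measure the spread between these libraries, which may be technical. The comparison asks how these genes respond when LOC730101 is depleted in resistant cells.

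ATF4 is the central transcription factor of the integrated stress response. When amino acids run short or unfolded proteins accumulate, stress kinases phosphorylate the translation factor eIF2, general translation slows, and the ATF4 message, held back by upstream open reading frames, is translated better. ATF4 then binds as a dimer with C/EBP family partners to composite C/EBP-ATF elements and raises genes for amino acid uptake, for the synthesis of serine, asparagine and proline, and for one-carbon metabolism. Because much of this control is translational, the amount of ATF4 mRNA is not a measure of ATF4 protein.

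The composite element is the sequence through which many of these genes are known to be driven, so the promoters that hold its core are printed here, next to the genes whose RNA is compared below. RefSeq promoters (GRCh38.p14) of 300 bases, from 250 before to 50 after a gene's start, were found for 26 of the 34 genes. The letters TGATGNAA, searched on both strands, were present in the promoters of 9 of these 26 genes (34.6%). Among all genes tested for expression with a promoter, 341 of 12236 (2.79%) held them, and among all genes with a promoter 1217 of 27305 (4.46%) did. Many of the 34 genes were known ATF4 targets when they were listed, so the larger share describes the list and is no test of it. Each stretch is written along the gene's own strand, with the match in capitals. Distances are from the annotated gene start that the window was built around, not from its first base. That start can lie inside the full span of the gene, as for SLC3A2 and SLC1A5. CHAC1, SLC3A2 and SLC1A4 carry it on the opposite strand.
ATF3, chr1:212565205-212565234, plus strand, match 191 bases before the start: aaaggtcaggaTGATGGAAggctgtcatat
CEBPG, chr19:33374060-33374089, plus strand, 42 bases before: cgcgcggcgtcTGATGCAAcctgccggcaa
JDP2, chr14:75427995-75428024, plus strand, 16 bases before: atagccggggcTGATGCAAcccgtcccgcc
CHAC1, chr15:40953251-40953280, plus strand, 209 bases before: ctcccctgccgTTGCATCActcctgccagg
ASNS, chr7:97872458-97872487, minus strand, 68 bases before: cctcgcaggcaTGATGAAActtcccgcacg
SLC3A2, chr11:62881725-62881748, plus strand, 37 bases after: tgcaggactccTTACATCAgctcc
SLC7A1, chr13:29595663-29595692, minus strand, 7 bases after: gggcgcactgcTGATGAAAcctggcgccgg
SLC1A5, chr19:46784893-46784922, minus strand, 97 bases before: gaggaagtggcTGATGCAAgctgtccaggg
SLC1A4, chr2:64989381-64989410, plus strand, 7 bases before: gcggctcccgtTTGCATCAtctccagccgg
ATF4, CEBPB, SLC7A5 and the other genes with a promoter had no match in their windows of 300 bases, which says only that those letters are not there.

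The libraries held 39213498 to 53368158 counts. LOC730101, listed in the table as ENSG00000216775, had 2560 and 2370 counts after siControl and 633 and 680 after siLOC730101. It fell by 66.0% in normalized CPM, the count scaled to the effective size of its library, from 47.4 and 50.6 to 15.4 and 17.9 (adjusted p = 4.3e-06, edgeR quasi-likelihood test over 19349 genes). The LNCaP luminal markers KLK3 and KLK2 were detected with 69616 to 98401 and 38012 to 52806 counts, while TP63, KRT5, PTPRC and CD3E, which mark basal and immune cells, were at 0 in every library. Other markers of basal, stromal and endothelial cells were not, with 8 to 24 counts for KRT14, 451 to 797 for COL1A1, 111 to 175 for COL3A1 and 238 to 442 for VWF. Of all genes tested, 41 (0.212%) were higher and 14 (0.0724%) were lower after siLOC730101 at an adjusted p under 0.05, and 2094 (10.8%) had an unadjusted p under 0.05. As a description of direction, the libraries of the groups did not overlap for 8076 genes (41.7%). In bulk RNA, fewer cells of a type and less RNA per cell cannot be told apart.

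None of the 34 genes was significantly higher or lower after siLOC730101, with adjusted p-values from 0.135 upward in edgeR. At an unadjusted p under 0.05 there were 4 genes, namely SLC7A5, CEBPB, PYCR1 and SESN2, against 10.8% of all genes. DESeq2, run beside edgeR, also called none, but gave ALDH1L2 no adjusted p. All 34 passed the edgeR filter on low counts. Their log2 fold changes, siLOC730101 against siControl, ran from -0.57 to 0.28 with a median of 0.033, beside a median of -0.0021 over all genes tested, and 20 lay above 0 and 14 below. The changes were small for 32 genes, which lay within 0.2 of 0 on the log2 scale. The 95% intervals also bounded them closely: 33 of 34 (97.1%) lay within a 2-fold change in either direction, beside 64.2% of all genes, and 32 of 34 (94.1%) within a 1.5-fold change, beside 50.6%. The genes were well covered, with a median standard error of 0.079 on the log2 scale, beside 0.17 over all genes. The groups of libraries did not overlap for 16 of 34 genes (47.1%), 10 of them higher and 6 lower after siLOC730101, close to the 41.7% of all genes.

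**Figure D1:**
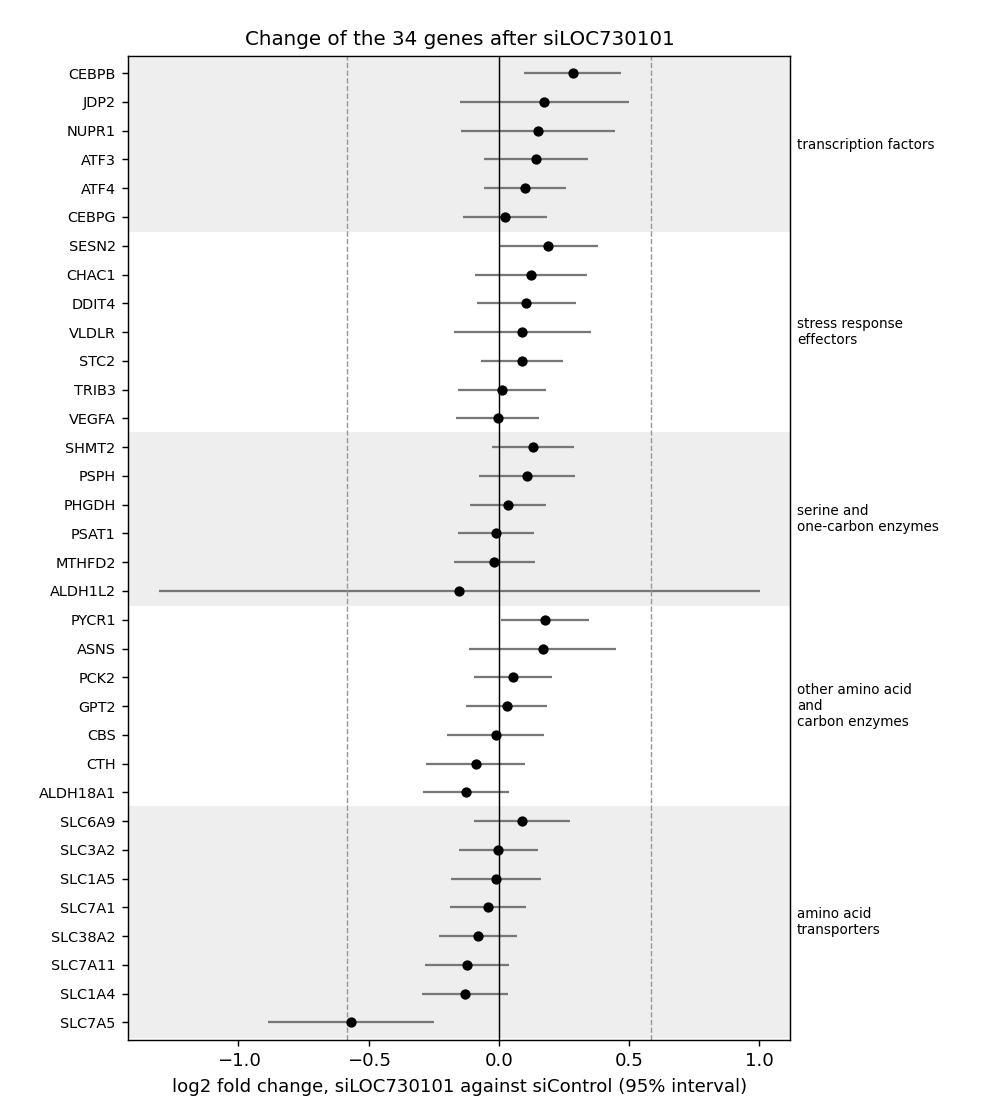
Log2 fold change of each of the 34 genes, siLOC730101 against siControl, by role, with 95% intervals from edgeR (2 libraries a group); dashed lines mark a 1.5-fold change. SLC7A5 (-0.57) lies farthest from 0, CEBPB (0.28) is highest, and only SLC7A5 and ALDH1L2 have intervals that reach past 1.5-fold.

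The levels themselves covered a wide range. Per kilobase of exon, normalized CPM in the siControl libraries was highest for PSAT1, the aminotransferase of serine synthesis, at a mean of 237, followed by ATF4 itself at 221 and SHMT2, the mitochondrial serine hydroxymethyltransferase, at 164. TRIB3 (117), PYCR1 (108) and PCK2 (107) came next, and PYCR1 and PCK2 overlapped between the libraries. The order depends on the lengths, which cover all annotated exons of a gene (2206 bases for PSAT1, 9187 for PHGDH). In CPM not divided by length, the siControl means of SHMT2 (752) and PHGDH (606) were above that of PSAT1 (523). The order also depends on shared exons, because 29.7% of the PYCR1 exon bases are shared with other genes. Per kilobase of unshared exon, PYCR1 (153.9) was above TRIB3 (117). At the other end, 5 genes were under 5 CPM per kilobase: SLC7A5 (3.51), ASNS (3.36), JDP2 (2.12), VLDLR (1.98) and ALDH1L2 (0.117). ASNS, the asparagine synthetase and a standard ATF4 target, was thus much lower than PHGDH, the first enzyme of serine synthesis, with a PHGDH to ASNS ratio per kilobase of 19.4 and 19.9 in the siControl libraries and 17.3 and 18.5 in the siLOC730101 libraries. The ASNS level is a lower estimate, because 49.3% of its exon bases are shared with ENSG00000284707, a gene on the same strand, and the counting command does not assign reads that fall on exons of more than 1 gene. Reads may also be shared with its copy ASNSP1, which had 334 to 479 counts. Per kilobase of unshared exon, ASNS stood at 6.63 after siControl and 7.45 after siLOC730101.

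**Figure D2:**
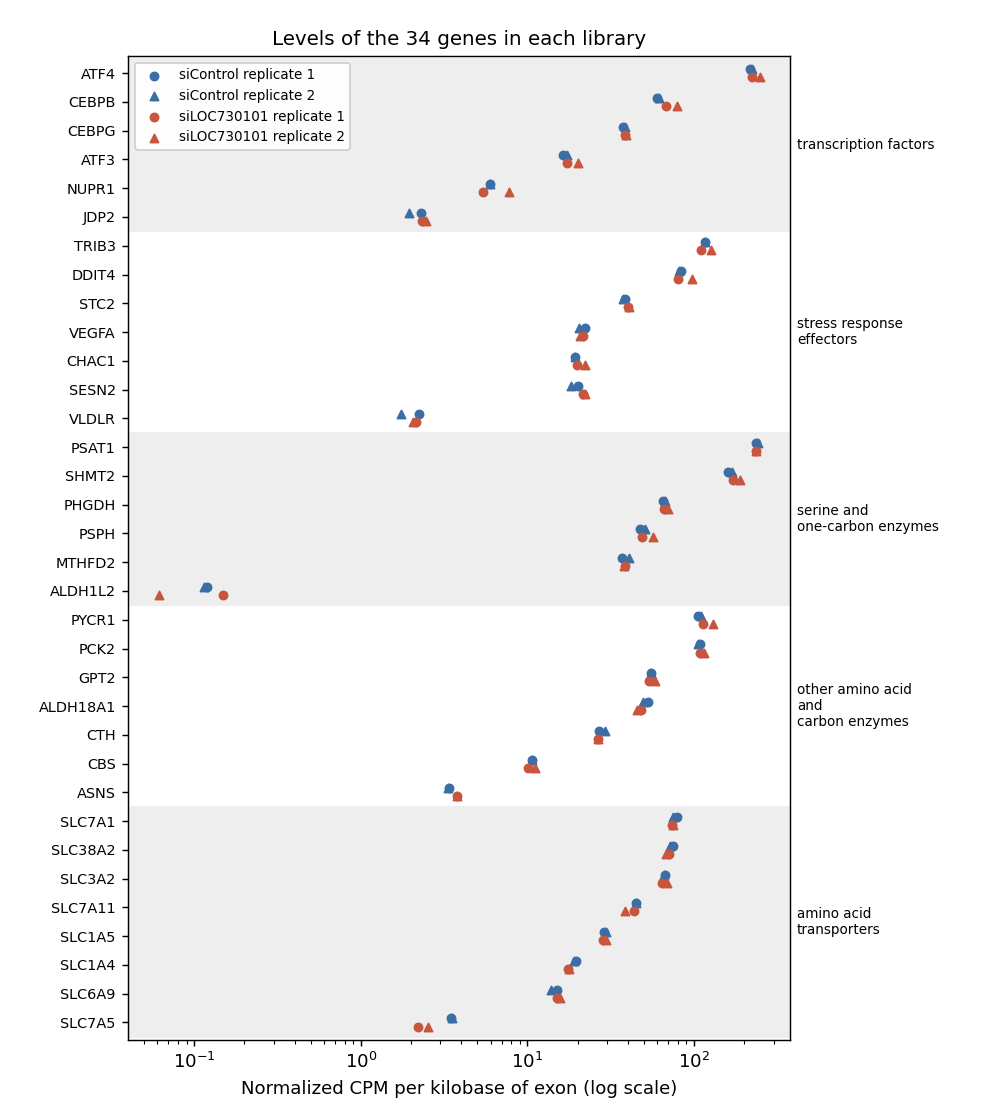
Normalized CPM per kilobase of exon (log scale) of the 34 genes in each of the 4 libraries, by role. Levels run from 0.117 (ALDH1L2) to 237 (PSAT1) in the siControl mean, and the 4 libraries of most genes lie on top of each other.

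None of the 6 transcription factors passed the test. Their log2 fold changes had a median of 0.15 and were above 0 in the fit of all 4 libraries, as were those of 9602 of the 19349 genes tested, although CEBPG turned to -0.0070 with upper-quartile factors and -0.014 with library size alone. Dropping siLOC730101 replicate 1 raised the median to 0.24, and dropping siLOC730101 replicate 2 brought it to 0.025, with NUPR1 at -0.13. ATF4 (chr22:39519695-39522683 on hg38, plus strand) had 569 and 584.5 CPM in the siControl libraries and 585.3 and 652 in the siLOC730101 libraries. Both siLOC730101 libraries were above both siControl libraries, but the first by under 1 CPM over the nearer control. The log2 fold change of ATF4 was 0.10 (SE 0.074, adjusted p = 0.683), with an interval for the ratio of 0.962 to 1.20. Without siLOC730101 replicate 1 the log2 fold change of ATF4 was 0.19 (adjusted p = 0.0913), and without replicate 2 it was 0.018 (adjusted p = 0.995). With all 4 libraries, a rise of ATF4 mRNA by more than 1.20 times lies outside that interval.

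CEBPB, which encodes a C/EBP partner of ATF4 and is itself raised in stress, had the highest log2 fold change of the 34 genes. The gene (chr20:50190830-50192668 on hg38, plus strand) had 109.5 and 113 CPM after siControl and 125 and 145 after siLOC730101. The control libraries were close together and both siLOC730101 libraries were higher, the second by more than the first. The log2 fold change was 0.28 (SE 0.087, interval 0.098 to 0.47), with an unadjusted p of 0.0052 and an adjusted p of 0.192 in edgeR. Across alternatives the adjusted p of CEBPB ran from 2.2e-04 to 0.683. Without siLOC730101 replicate 1 it passed at a log2 fold change of 0.40, and without siLOC730101 replicate 2 it was 0.17 and did not. Its antisense gene CEBPB-AS1 covers 12.6% of its exon bases and had 332 to 511 counts in the 4 libraries. Without a strand option, reads of the pair outside shared bases were assigned by position only.

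CEBPG, the usual dimer partner of ATF4 at amino acid response elements, had 151 and 157 CPM after siControl and 155 and 158 after siLOC730101, and the groups overlapped. ATF3, a stress-induced repressor of the ATF family, had 66.2 and 70.0 CPM after siControl and 69.8 and 80.7 after siLOC730101, and JDP2, a related bZIP repressor, had 14.4 and 12.2 against 14.5 and 15.5. NUPR1, a small stress-induced chromatin protein, had 32.8 and 32.7 CPM after siControl but 29.9 and 42.7 after siLOC730101, so its 2 siLOC730101 libraries lay on either side of the control values. The adjusted p-values of CEBPG, ATF3, JDP2 and NUPR1 ran from 0.635 to 0.952 in edgeR. For NUPR1, dropping siLOC730101 replicate 1 gave a log2 fold change of 0.39 (adjusted p = 0.039) and dropping replicate 2 gave -0.13 (adjusted p = 0.936).

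The stress response effectors had 6 log2 fold changes above 0 and 1 below, with a median of 0.090, and none passed the test. With upper-quartile factors or library size alone, 5 of 7 stayed above 0. TRIB3, a pseudokinase that ATF4 and CHOP raise and that restrains AKT, had 385 CPM in both siControl libraries and 359.8 and 416 in the siLOC730101 libraries, one on each side of the controls. Its log2 fold change was 0.011 (SE 0.079) and turned negative with upper-quartile factors, library size alone and a mean count above 50. CHAC1, which degrades glutathione, had 39.6 CPM in both siControl libraries and 40.8 and 45.5 after siLOC730101 (log2 fold change 0.12, SE 0.10). DDIT4, an inhibitor of mTORC1, had 178 and 172 CPM against 170.0 and 206, and the groups overlapped.

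SESN2, a leucine sensor that restrains mTORC1 when leucine is scarce, had 69.7 and 63.3 CPM after siControl and 74.7 and 77.1 after siLOC730101. The groups did not overlap, and the log2 fold change was 0.19 (SE 0.089, unadjusted p = 0.0488, adjusted p = 0.458 in edgeR). STC2, a secreted glycoprotein of the unfolded protein response, had 195 and 189.7 CPM against 202 and 207, a log2 fold change of 0.089. VLDLR, a lipoprotein receptor, had 36.8 and 28.6 CPM in the control libraries, which spread wider than the 35.6 and 34.1 of the siLOC730101 libraries between them. VEGFA, the angiogenic growth factor, had 321 and 292 CPM against 311 and 300.2 and a log2 fold change of -0.0050, where the groups overlapped.

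The serine and one-carbon enzymes were split evenly, 3 above 0 and 3 below, with a median log2 fold change of 0.012 and no gene past the test. The even split did not hold throughout. With library size alone 2 lay above 0 and 4 below, and with 1 library left out 2 to 5 lay above 0. With upper-quartile factors the split stayed even and the median was -0.019. PHGDH, which commits 3-phosphoglycerate to serine, had 599.5 and 613 CPM after siControl and 603 and 639 after siLOC730101. PSAT1 had 516 and 530.4 CPM against 519 and 520.4, with the siLOC730101 libraries inside the control range, and the interval of its ratio ran from 0.897 to 1.10. PSPH, the last enzyme of the serine pathway, had 129.9 and 140.2 CPM against 135 and 156, and the groups overlapped. PSPH reads may be shared with its copy PSPHP1, which had 471 to 660 counts.

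SHMT2, which moves a carbon from serine to folate in mitochondria, was the one gene of this group whose libraries did not overlap. It had 729.6 and 775 CPM after siControl and 782 and 867 after siLOC730101, with a log2 fold change of 0.13 (SE 0.073, adjusted p = 0.556 in edgeR). MTHFD2, the next step of that pathway, had 423 and 464 CPM against 439.6 and 436, so both siLOC730101 libraries lay between the controls. ALDH1L2, a mitochondrial folate dehydrogenase, had only 61 and 51 counts after siControl and 58 and 22 after siLOC730101. Its ratio had an interval of 0.404 to 2.01, the widest of the 34 genes.

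Among the other enzymes, 4 log2 fold changes lay above 0 and 3 below, with a median of 0.030 and none past the test. With upper-quartile factors or library size alone, GPT2 turned negative and 3 of 7 lay above 0. The enzymes of proline synthesis went in opposite directions. PYCR1, its last enzyme, had 306 and 319 CPM after siControl and 329 and 376 after siLOC730101, and the groups did not overlap. The log2 fold change of PYCR1 was 0.18 (SE 0.079, unadjusted p = 0.0431, adjusted p = 0.445 in edgeR), and without siLOC730101 replicate 1 it was 0.28 (adjusted p = 0.0052) and without replicate 2 it was 0.072 (adjusted p = 0.936). ALDH18A1, the first enzyme of the route, had 199 and 185 CPM against 180.4 and 171, with both siLOC730101 libraries below the controls and a log2 fold change of -0.13 (SE 0.077, adjusted p = 0.599).

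ASNS had 16.5 and 16.4 CPM after siControl and 18.6 and 18.4 after siLOC730101, on 699 to 892 counts a library. Replicates of ASNS were nearly equal and the groups did not overlap, yet the log2 fold change of 0.17 had a fitted standard error of 0.13 and an adjusted p of 0.714. CTH, which makes cysteine from cystathionine, had 65.2 and 70.8 CPM against 63.5 and 64.3, with the siLOC730101 libraries below both controls and a log2 fold change of -0.089 (SE 0.089). CBS, the enzyme before it in transsulfuration, had 72.5 and 72.7 CPM against 68.8 and 75.2, one siLOC730101 library on each side. PCK2, the mitochondrial PEP carboxykinase, had 452 and 442 CPM against 451 and 477, and GPT2, the mitochondrial alanine aminotransferase, had 349 and 351 against 343 and 371. The groups overlapped for CBS, PCK2 and GPT2.

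None of the 8 amino acid transporters passed the test, and 7 of 8 log2 fold changes lay below 0, with a median of -0.060. The split of 7 below and 1 above stood under each scaling tried and without siLOC730101 replicate 2. Without siControl replicate 1, and likewise without siControl replicate 2, 6 of 8 were below. Without siLOC730101 replicate 1, 5 of 8 were below. The groups did not overlap for 5 of the 8, of which 4 were lower and SLC6A9 was higher, beside 41.7% of all genes. Among all genes tested, 50.4% of log2 fold changes lay below 0.

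SLC7A5 stood farthest from 0 of the 34 genes. It encodes LAT1, the light chain that exchanges leucine and other large neutral amino acids across the membrane. The gene (chr16:87830023-87869507 on hg38, minus strand) had 900 and 788 counts after siControl and 433 and 458 after siLOC730101, which is 16.6 and 16.8 CPM against 10.5 and 12.1. The control libraries were close together, the siLOC730101 libraries were farther apart, and both were below both controls. The ratio was 0.675 (95% interval 0.541 to 0.842), a log2 fold change of -0.57 (SE 0.15). Its unadjusted p was 0.0018, and its adjusted p was 0.135, short of the threshold. In the alternatives the log2 fold change of SLC7A5 ran from -0.67 to -0.46 and was below 0 in each, with adjusted p-values of 0.0166 to 0.249. No counts fell on its pseudogenes SLC7A5P1 and SLC7A5P2, and the opposite-strand gene that shares 5.69% of its exon bases was also at 0.

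LAT1 reaches the cell surface only in a pair with the heavy chain 4F2hc, which SLC3A2 encodes. SLC3A2 had 429.8 and 419 CPM after siControl and 411 and 437 after siLOC730101, with overlapping groups and an interval of the ratio of 0.899 to 1.11. Per kilobase, SLC3A2 was thus far more abundant than SLC7A5, with a ratio of 19.2 and 18.6 in the siControl libraries and 29.1 and 27.0 in the siLOC730101 libraries. SLC7A11, the cystine and glutamate exchanger xCT and another light chain that pairs with SLC3A2, had 431 CPM in both siControl libraries and 419 and 373 after siLOC730101. Both siLOC730101 libraries were below the controls, the second by more, and the log2 fold change of SLC7A11 was -0.12 (SE 0.076, adjusted p = 0.606 in edgeR).

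Of the further transporters, 5 other light chains and carriers of large neutral amino acids are given beside SLC7A5, picked after values were seen. SLC7A8, the light chain LAT2, had 193 and 181 CPM against 186 and 209. SLC43A1, a carrier of large neutral amino acids that needs no heavy chain, had 51.0 and 49.4 against 51.5 and 55.1. SLC7A6, a light chain for cationic amino acids, had 18.3 and 22.6 against 22.6 and 19.2. SLC43A2, the relative of SLC43A1, had 53.1 and 44.5 against 44.5 and 49.7, and SLC7A7, a light chain for cationic amino acids, had only 22 to 53 counts a library. The groups overlapped for each of these genes except SLC43A1. Per kilobase, SLC7A8 (31.2) and SLC43A1 (14.2) were above SLC7A5 (3.51) in the siControl mean. The log2 fold changes were 0.083 for SLC7A8, 0.086 for SLC43A1, 0.034 for SLC7A6, -0.050 for SLC43A2 and -0.45 (SE 0.66) for SLC7A7, with adjusted p-values of 0.788 to 0.965, and whether they differ from that of SLC7A5 was not tested.

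**Figure D3:**
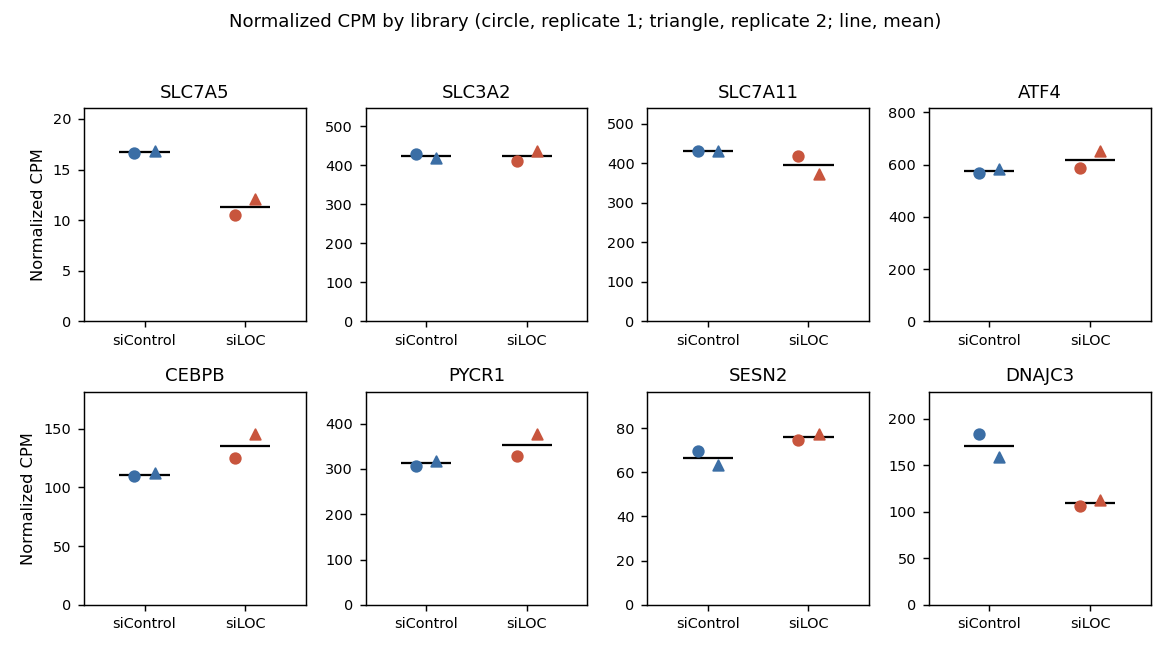
Normalized CPM in each library for 7 of the 34 genes and for DNAJC3 (circle, replicate 1; triangle, replicate 2; line, group mean; each axis starts at 0). SLC7A5 falls into separate groups (16.6 and 16.8 against 10.5 and 12.1), its partner SLC3A2 overlaps, and DNAJC3 is the only one of the 8 that passed the test.

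None of the remaining transporters passed the test. SLC38A2, a sodium-coupled carrier of small neutral amino acids, had 483 and 467 CPM after siControl and 461 and 438 after siLOC730101. SLC1A4, which carries serine and alanine, had 135 and 133 against 121 and 124. For SLC38A2 and SLC1A4 both siLOC730101 libraries were below both controls, with log2 fold changes of -0.079 and -0.13 and adjusted p-values of 0.759 and 0.584 in edgeR. SLC1A5, the glutamine exchanger ASCT2, had 96.4 and 98.6 CPM against 94.2 and 99.2, and SLC7A1, the cationic amino acid carrier, had 603 and 575 against 568 and 578, with overlapping groups for both. SLC6A9, the glycine carrier, had 78.5 and 72.5 CPM against 78.9 and 81.7 and was the transporter that lay above 0, by 0.089.

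Single libraries decided several of the small differences. Between the 2 siLOC730101 libraries, replicate 2 had the higher normalized CPM in 26 of the 34 genes, whereas siControl replicate 2 was the higher one in 17 of 34. The share over all genes tested was not counted, so these counts are not read as a trait of the 34 genes. Without siLOC730101 replicate 1, 5 genes were significantly higher: CEBPB, NUPR1, DDIT4, SHMT2 and PYCR1. In that fit 923 of 21482 genes were higher and 272 lower, with the lone siLOC730101 library assumed to vary like the others. Without siLOC730101 replicate 2 none of the 34 was called, and the median log2 fold change of the 34 genes was -0.0076, against 0.090 without replicate 1.

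**Figure D4:**
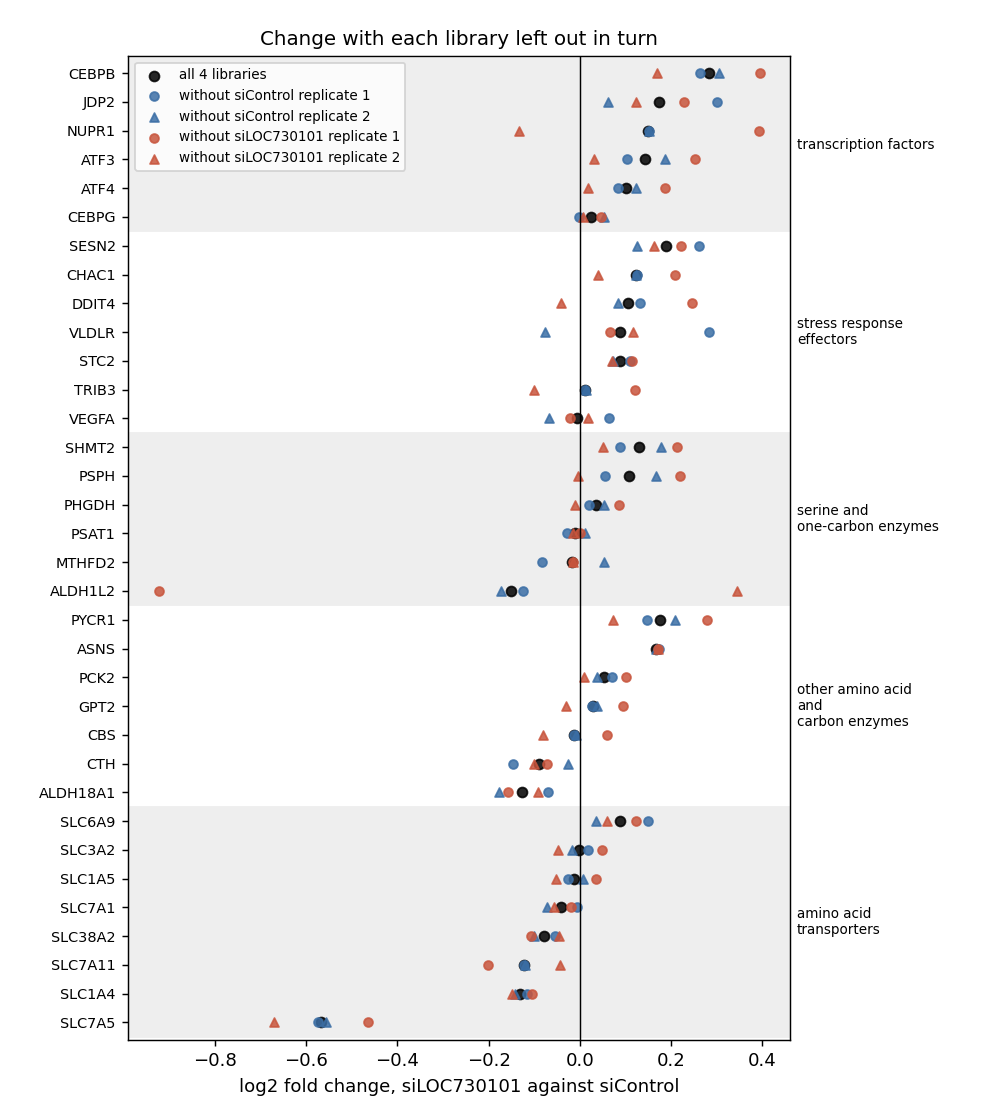
Log2 fold change of each of the 34 genes with all 4 libraries (black) and with each library left out in turn. NUPR1 spans -0.13 to 0.39 and DDIT4 -0.042 to 0.25 depending on the siLOC730101 library that is left out, while SLC7A5 stays below 0 throughout.

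The wider pathway was read from 6 lists of 117 further genes, of which 111 were tested. The lists were chosen with earlier results of these data known, so counts of calls in them describe the lists and test nothing. In these lists 1 gene fell and none rose, beside 0.0724% lower and 0.212% higher over all genes, and 11 of 111 had an unadjusted p under 0.05, beside 10.8% (median log2 fold change 0.035, 65 above 0 and 46 below). The gene that fell was DNAJC3, one of 17 stress kinases and regulators. It encodes p58IPK, a chaperone of the endoplasmic reticulum that is also known as an inhibitor of the eIF2 kinases PERK and PKR. DNAJC3 had 183 and 159 CPM after siControl and 106 and 113 after siLOC730101, with no overlap. Its log2 fold change was -0.65 (SE 0.086, adjusted p = 0.00266 in edgeR), and it was called under all 14 alternatives, from -0.74 to -0.54. The next genes of that list were IMPACT, a regulator of the eIF2 kinase GCN2, at -0.16 (adjusted p = 0.492), and EIF2B5, a subunit of the eIF2 exchange factor, at 0.18 (adjusted p = 0.525).

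None of the 24 further ATF4 and CHOP targets and bZIP partners passed, and their median log2 fold change was 0.012. TXNIP, a thioredoxin-binding arrestin, was at -0.26 (adjusted p = 0.162), and SQSTM1, an autophagy receptor, was at 0.24 (adjusted p = 0.221). Of 21 further serine and one-carbon genes tested, none passed (median -0.033). SFXN3, a mitochondrial serine carrier, was at 0.39 (adjusted p = 0.207), and MAT2A, which makes S-adenosylmethionine, was at -0.18 (adjusted p = 0.394). None of 21 further transporters tested passed (median 0.028), with the lowest adjusted p for the lysosomal carrier SLC36A1 (0.27, adjusted p = 0.491) and the mitochondrial aspartate and glutamate carrier SLC25A13 (0.14, adjusted p = 0.584).

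Of 17 glutamine, aspartate, arginine, proline and branched-chain enzymes tested, none passed (median 0.035). PRODH, which degrades proline, was at -0.80 (SE 0.32, adjusted p = 0.351) on 70 to 192 counts a library, and ASL, argininosuccinate lyase, was at 0.21 (adjusted p = 0.495). Of 11 glutathione and cysteine genes tested, none passed, 10 lay above 0 and 1 below, and the median was 0.074. GPX4, which reduces lipid peroxides with glutathione, had 331 and 338 CPM after siControl and 392 and 438 after siLOC730101, a log2 fold change of 0.31 (SE 0.076) with an adjusted p of 0.105, the lowest in that list. MPST, which moves sulfur from mercaptopyruvate, was at 0.37 (adjusted p = 0.131). DESeq2 called TXNIP lower and GPX4 and MPST higher, with adjusted p-values of 0.0209, 0.0036 and 0.0405.

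The microRNA miR-1-3p was part of the study beside LOC730101, so its sites in these genes are shown with their changes. The mature RNA, as RefSeq gives it, has its seed, bases 2 to 8, in capitals.
hsa-miR-1-3p: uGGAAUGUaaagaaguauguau
A match to the seed, ACATTCC, was found in the 3′ UTR of 6 of 33 genes with a UTR (18.2%), beside 1785 of 13458 genes tested (13.3%). These were STC2, VLDLR, VEGFA, ALDH1L2, ASNS and SLC7A11. The sites of STC2, VLDLR and SLC7A11 that are followed by an A are printed with the match in capitals (GRCh37, along the gene's strand, 1 transcript a gene).
STC2, chr5:172744775-172744803, minus strand: cttatctatggACATTCCaaaacatttac
VLDLR, chr9:2659459-2659487, plus strand: caagacgctagACATTCCagaattatttt
SLC7A11, chr4:139085725-139085753, minus strand: tttctgcatccACATTCCaatcatattag
The log2 fold changes of these 6 genes were 0.089 for STC2, 0.090 for VLDLR, -0.0050 for VEGFA, -0.15 for ALDH1L2, 0.17 for ASNS and -0.12 for SLC7A11, and none passed the test. SLC7A5 held no such match in its 3′ UTR. The 9 genes with the ATF letters in their promoters, printed above, had log2 fold changes from -0.13 for SLC1A4 to 0.17 for JDP2.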

How the data were processed

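RNA sequencing counts of 4 DaroR libraries were used, with groups taken from the sample labels. The unit is the count: the authors deposited raw counts per gene from featureCounts 2.0.1, whose header names hg38 and gencode 41, with no paired-end or strand option, so mates may be counted separately (66.0% to 70.1% of counts from 1 to 20 were even) and reads on exons of more than 1 gene are not counted. The study's methods name another build, hg19, and another aligner (STAR) than the submitters' processing notes (BWA). The exon length column, deposited by the authors in bases, was used for values per kilobase.

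Counts were filtered with filterByExpr, scaled with TMM and tested with the edgeR 4.0.16 quasi-likelihood test (R 4.3.3) with condition as the only term. P-values were adjusted by Benjamini-Hochberg over 19349 genes with a threshold of 0.05. CPM are normalized with the TMM factors, standard errors and 95% intervals were derived from edgeR's coefficient and F value for each gene, and the biological coefficient of variation was 0.147. An exact permutation test of 2 against 2 libraries cannot go below p = 0.333. Chi-square per degree of freedom between replicates was 10.6 and 13.0, so replicates differed beyond sampling noise. Deviations of the same-numbered libraries did not correlate (r = -0.00090), so the numbers were not used as pairs.

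The 34 genes and the lists were chosen with earlier results of these data known. Named were each of the 34 genes, LOC730101, list genes with an adjusted p under 0.05 and up to 2 further genes of a list by lowest adjusted p. Exceptions are stated, and 2 genes are not reported here. Promoters and miR-1-3p came from RefSeq tables and UTRs from a GRCh37 annotation, matched by symbol, without converting coordinates. Alternatives were other scalings, filters, DESeq2 1.42.0, quasi-likelihood settings, halved counts, the replicate block and each library left out.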

Additional observations from a re-analysis of the deposited data

How the results depend on the processing

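LOC730101 was called lower in all 14 alternatives, at log2 fold changes of -1.67 to -1.44. The 34 genes gave 0 calls with each other scaling, a mean count above 50, DESeq2, both other quasi-likelihood settings and halved counts. ALDH1L2 could not be called in 2 of these. It was filtered out with a mean count above 50, and DESeq2, which gave adjusted p-values for 9525 genes, gave it none. With no filter beyond 1 count, 1 of them was lower (SLC7A5, adjusted p = 0.0387), where 324 genes were higher and 113 lower among 31960. In the replicate block 1 was higher (CEBPB, adjusted p = 0.0197) and 1 lower (SLC7A5, adjusted p = 0.0166), where 485 genes were higher and 167 lower. No label used here says whether same-numbered libraries were prepared together, and the correlation given above does not settle it. With 1 library left out, 0 to 5 were higher, the median ran from -0.0076 to 0.090, and with library size alone the median was -0.0057. Calls over all genes were 41 higher and 14 lower, against 234 and 63 in DESeq2, 87 and 24 with the legacy setting off, 113 and 35 with halved counts, 123 and 50 with a mean count above 50, 58 and 35 with library size alone, and 77 to 923 higher and 26 to 272 lower with 1 library left out. The median of all genes shifted to -0.033 with upper-quartile factors and -0.039 with library size alone.

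Signs turned for 15 of the 34 genes, none of them called with all 4 libraries. With upper-quartile factors these were CEBPG (-0.0070), TRIB3 (-0.020) and GPT2 (-0.0012), with library size alone CEBPG (-0.014), TRIB3 (-0.028), PHGDH (-0.0032) and GPT2 (-0.0082), and with a mean count above 50 TRIB3 (-0.0049). With 1 library left out, log2 fold changes ran from -0.00082 to 0.053 for CEBPG, -0.068 to 0.065 for VEGFA, -0.048 to 0.050 for SLC3A2, -0.076 to 0.28 for VLDLR, -0.028 to 0.012 for PSAT1, -0.082 to 0.053 for MTHFD2, -0.052 to 0.035 for SLC1A5, -0.080 to 0.060 for CBS, -0.13 to 0.39 for NUPR1, -0.10 to 0.12 for TRIB3, -0.042 to 0.25 for DDIT4, -0.011 to 0.086 for PHGDH, -0.0045 to 0.22 for PSPH, -0.92 to 0.34 for ALDH1L2 and -0.030 to 0.094 for GPT2. The cause was not tested. ALDH1L2 had the fewest counts, 22 to 61 a library. Of the 34 genes, 2 had intervals reaching past a 1.5-fold change, so a smaller change than that could be missed for the others.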
